A study of Mus musculus with 10 samples.

Results

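The acute phase response genes are 34 liver genes that encode plasma proteins of the inflammatory response, the receptors and transcription factors that drive them, and the metallothioneins. They were taken from a list of gene symbols, and each gene was represented by the probe set with the highest mean log2 signal over all 10 arrays. Of the 34, 33 had a probe set annotated to that gene alone, and Serpina3m did not. The series as a whole had 18193 such genes, of which 11032 passed a filter on low mean signal. The filter kept 32 of the 33 measured members and dropped A2m, which is described by its values and was not tested.

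The arrays held mouse liver RNA of a mixed 129/B6 strain, either wild-type or Gnmt knockout, where Gnmt is the gene of glycine N-methyltransferase, which uses up S-adenosylmethionine in hepatocytes. At 11 weeks there were 2 wild-type and 2 knockout arrays, in each genotype 1 array of females and 1 of males, and RNA of 3 mice was mixed for each of them. The 6 aged arrays were all from Gnmt knockout mice: dysplastic nodule tissue and adjacent liver of a female of 21 months, hepatocellular carcinoma (HCC) and adjacent liver of a male of 18 months, and HCC and adjacent liver of a female of 14 months. Lesion and adjacent tissue were matched by sex and age, and that each match came from 1 mouse was inferred. No aged wild-type liver was analysed here, so age and tumour burden in the knockout cannot be told apart. With 2 pools per genotype, 1 of each sex, sex was a term in the genotype comparison. Its p-values rest on how far the female and male differences disagree, moderated by the variances of all genes. They do not measure the spread between mice of a genotype.

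Values are probe set signals on a linear scale, and each array had been scaled to a trimmed mean of 500. Array medians lay between 77.4 and 102.4. Gnmt itself read 59473 and 52139.9 in wild-type liver and 11.7 to 329.4 in the 8 knockout arrays, in the direction the labels give. The 12 hepatocyte markers were all measured, and their summed signal lay between 379798 and 616931 in every array. The arrays of 1 mouse stood apart for these genes: the male with HCC is given separately below, with each comparison it enters. In tissue RNA, fewer cells of a type and less RNA per cell cannot be told apart.

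The acute phase response is the change in plasma protein synthesis that hepatocytes make within hours of infection, injury or other inflammation. Interleukin 6 acts through its receptor subunit Il6ra and the transcription factor Stat3, interleukin 1 acts through its receptor Il1r1 and NF-kB, and the C/EBP factors Cebpb and Cebpd act with both. In mice the serum amyloid A proteins and the pentraxin Apcs respond strongly, while Crp responds weakly, and constitutive proteins such as Saa4 circulate without inflammation. Zinc is drawn into the liver at the same time and bound by the metallothioneins Mt1 and Mt2.

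The bases before the start sites of 8 members are shown: Orm2 and Saa4, whose genotype differences passed the test, their relatives Orm3, Saa1, Saa2 and Saa3, Lcn2, which had the widest range over the arrays, and Mt2, as a gene with known metal response elements. They are the 250 bases upstream of each RefSeq start, build GRCm38.p6, written 5' to 3' in the direction of the gene. The serum amyloid A genes lie together on chromosome 7. Saa3 is at chr7:46715677-46715926 on the minus strand, Saa4 at chr7:46732604-46732853 on the minus strand, Saa1 at chr7:46742981-46743230 on the minus strand, and Saa2 at chr7:46751583-46751832 on the plus strand. Capitals mark TTGCNNAA, the letters of a C/EBP site, on either strand.
Saa1: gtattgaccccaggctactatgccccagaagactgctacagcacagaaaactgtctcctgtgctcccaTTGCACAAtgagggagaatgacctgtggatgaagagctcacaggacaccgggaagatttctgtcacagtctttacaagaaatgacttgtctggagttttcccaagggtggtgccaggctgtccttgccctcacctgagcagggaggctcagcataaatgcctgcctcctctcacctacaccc
Saa2: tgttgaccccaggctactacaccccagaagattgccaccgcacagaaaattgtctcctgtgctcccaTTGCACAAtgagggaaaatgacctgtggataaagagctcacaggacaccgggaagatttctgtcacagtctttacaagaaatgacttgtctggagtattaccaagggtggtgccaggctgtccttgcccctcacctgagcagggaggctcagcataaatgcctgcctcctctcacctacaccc
Saa3: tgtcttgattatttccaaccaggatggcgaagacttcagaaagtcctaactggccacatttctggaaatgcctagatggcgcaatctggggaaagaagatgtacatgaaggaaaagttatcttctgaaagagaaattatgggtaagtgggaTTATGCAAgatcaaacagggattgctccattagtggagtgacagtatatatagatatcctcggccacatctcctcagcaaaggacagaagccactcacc
Saa4: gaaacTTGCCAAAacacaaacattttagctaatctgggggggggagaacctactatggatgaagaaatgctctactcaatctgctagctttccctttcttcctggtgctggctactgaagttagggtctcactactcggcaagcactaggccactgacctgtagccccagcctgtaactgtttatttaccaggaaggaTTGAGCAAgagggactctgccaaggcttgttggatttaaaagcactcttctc
The windows of Saa1 and Saa2 had 197 of 250 bases in common at the best shift of up to 20 bases, and those of Saa1 and Saa3 had 76. Orm2 lies at chr4:63362199-63362448 and Orm3 at chr4:63355908-63356157, both on the plus strand, and Lcn2 at chr2:32387740-32387989 on the minus strand. The windows of Orm2 and Orm3 had 168 of 250 bases in common in the same way. Capitals again mark TTGCNNAA.
Orm2: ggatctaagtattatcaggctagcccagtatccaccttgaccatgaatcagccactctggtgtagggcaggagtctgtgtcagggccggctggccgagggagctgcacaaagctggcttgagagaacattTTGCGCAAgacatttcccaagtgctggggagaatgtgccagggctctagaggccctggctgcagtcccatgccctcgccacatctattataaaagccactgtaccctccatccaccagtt
Orm3: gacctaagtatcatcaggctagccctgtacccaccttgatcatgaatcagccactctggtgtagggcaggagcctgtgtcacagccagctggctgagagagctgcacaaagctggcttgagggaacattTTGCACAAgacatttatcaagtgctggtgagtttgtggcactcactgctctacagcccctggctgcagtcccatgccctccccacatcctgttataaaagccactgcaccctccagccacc
Lcn2: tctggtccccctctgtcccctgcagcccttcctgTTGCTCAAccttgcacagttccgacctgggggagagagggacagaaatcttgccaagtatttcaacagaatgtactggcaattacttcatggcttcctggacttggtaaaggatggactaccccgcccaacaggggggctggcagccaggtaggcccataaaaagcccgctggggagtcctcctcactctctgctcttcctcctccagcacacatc
Mt2 lies at chr8:94172368-94172617 on the plus strand. Its capitals mark TGCNCNC, the core letters of the metal response element.
Mt2: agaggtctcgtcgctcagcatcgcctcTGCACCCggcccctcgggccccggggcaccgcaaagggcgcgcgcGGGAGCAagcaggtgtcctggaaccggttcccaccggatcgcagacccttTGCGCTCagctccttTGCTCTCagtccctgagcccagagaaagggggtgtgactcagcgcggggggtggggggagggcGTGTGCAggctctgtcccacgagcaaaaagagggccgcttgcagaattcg

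Promoter entries were present for 26 members, with 29 windows, and 8 members had none. TTGCNNAA was found in 13 of the 29 windows, those of 13 of the 26 genes, and in 9.57% of all 32841 windows of the same length. Windows of relatives that share many bases, such as Saa1 and Saa2, were counted separately. CTGGGAA, the letters of the type 2 interleukin 6 response element, was in 8 of the 29 windows (6 genes) against 9.1% of all windows. Overlapping windows of Il1rn that hold the same match were each counted among the 8. TTCNNNGAA, the STAT palindrome, was in 6 of the 29 (6 genes) against 7.02%. These last motifs can overlap, and both strands were searched for each. GGG followed after 5 bases by CC, the spacing of an NF-kB site, was in 17 of the 29 windows (16 genes) against 45.8% of all windows. TGCNCNC was in 9 of the 29 (9 genes) against 44.4%. The window of Mt2 held 5 matches to TGCNCNC and that of Mt1 held 1, while 4.65% of all windows held 3 or more. A match describes letters only.

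The pattern that most members shared across the 10 arrays was that of 1 mouse. Both arrays of the male with HCC, tumour and adjacent liver alike, were above all 8 other arrays for 26 of the 32 members, whereas 12.3% of all genes had this pattern. None of the 32 was below all others there, against 9.57% of all genes. The 6 members that were not above were Saa4, Il6ra, Stat3, Nfkbiz, Cebpb and Agt. No member was above all other arrays in both arrays of the female with HCC or of the nodule mouse. Few genes were, 2.95% and 1.89% of all, so this absence says little about the members. In the nodule mouse Crp, Apcs, Lrg1 and Cebpb had both arrays below all others, 4 of 32 members against 2.59% of genes. With quantile normalization or with the mean of all probe sets of a gene, 25 of the 32 were above in the male mouse, and with centring on the 75th percentile 26.

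**Figure D1:**
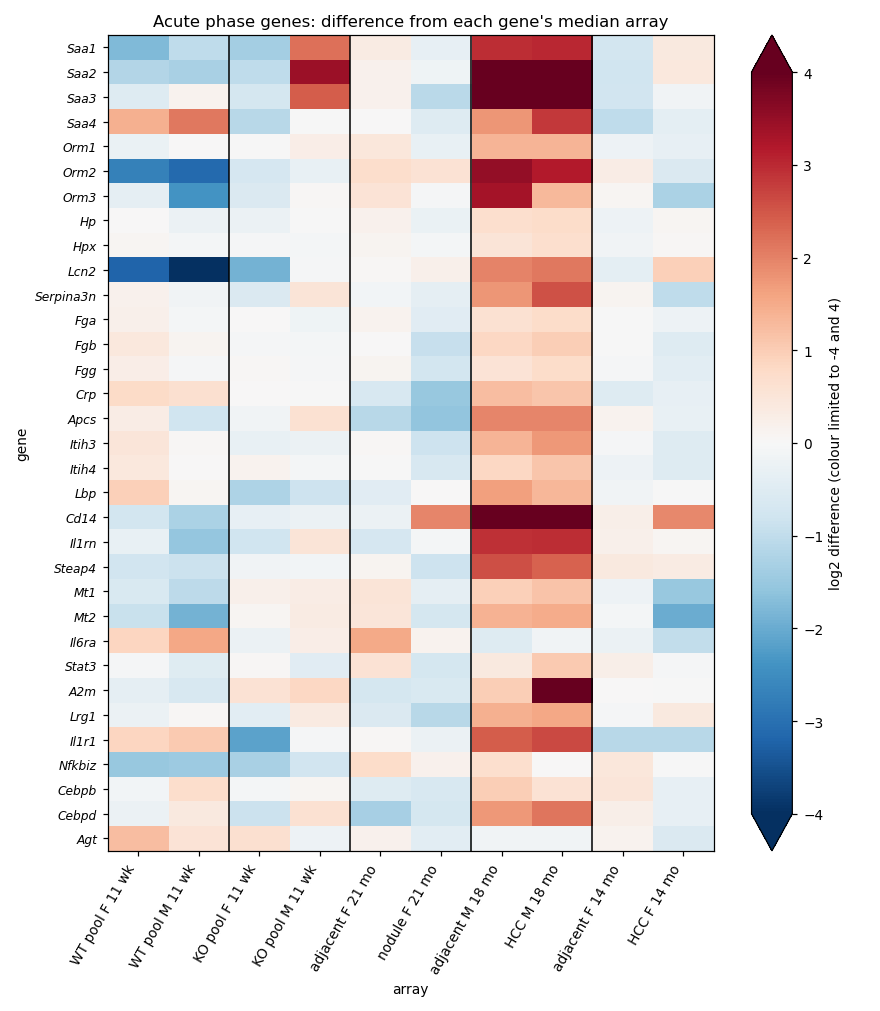
Heat map of the 33 measured members (rows) in the 10 arrays (columns), coloured by the log2 difference of signal plus 16.8 from the gene's own median over the arrays; WT is wild-type, KO knockout, F female and M male. The adjacent liver and HCC of the 18 month male are red in most rows, Lcn2 and Orm2 are blue in both wild-type columns, and Saa1, Saa2 and Saa3 are red in the 11 week knockout male pool.

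**Figure D2:**
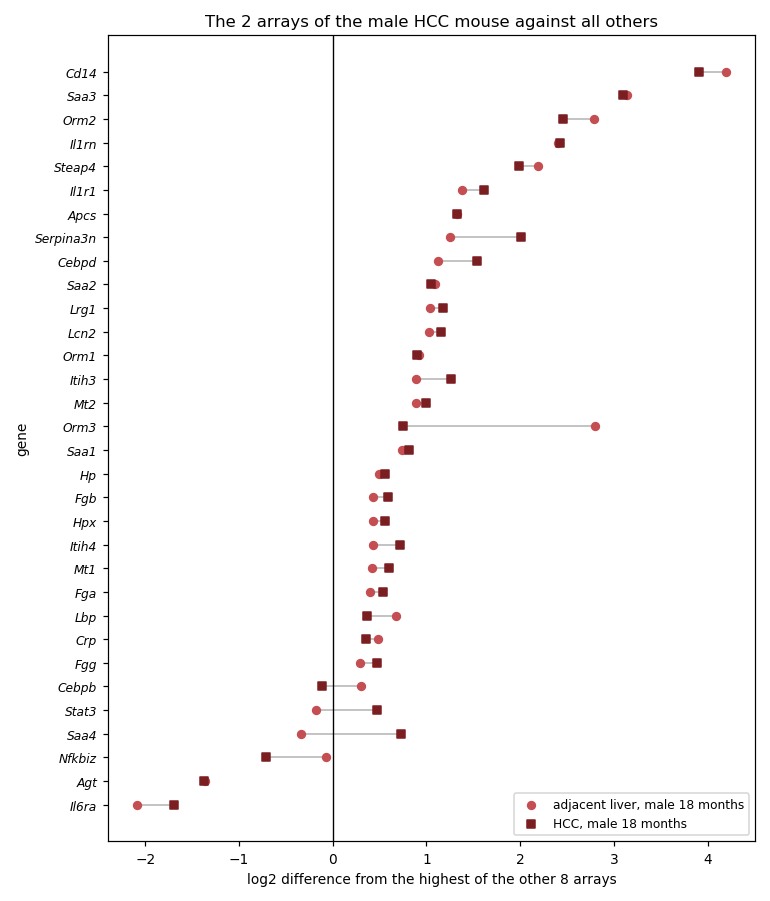
Log2 difference of each array of the 18 month male from the highest of the other 8 arrays, for the 32 members past the filter; circles are adjacent liver, squares are HCC, and the line joins them. Both points lie right of 0 for 26 members, farthest for Cd14 and Saa3, and both lie left of 0 for Nfkbiz, Agt and Il6ra.

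Some markers of neutrophils were high in that mouse. Of 5 past the filter, 3 had both of its arrays above all others, namely S100a8, S100a9 and Ngp, against 12.3% of all genes. The summed signal of the 10 measured neutrophil markers was 16371 in its HCC and 15980 in its adjacent liver, and 748 to 2077 in the other arrays. S100a8 was at 8788 and 10076 there and at most 700.0 elsewhere. With S100a9, at 4581 and 3417, it made up most of the sum. Ltf, Mmp8 and Camp, which did not pass the filter, also had both arrays above all others. Ltf was at 299.2 and 341.5, against at most 114.5, and Mmp8 at 464.5 and 238.3, against at most 125.9. Camp was at 149.8 and 82.5, against at most 66.3. The receptor genes Csf3r and Cxcr2 did not have both arrays above. Cxcr2 and Mpo did not pass the filter either. Csf3r was at 352.6 and 203.0, against 275.6 in the wild-type female pool. Cxcr2 was at 23.3 and 103.6, against 81.4 in the wild-type male pool. Mpo and Elane, which define granulocyte precursors, were at 134.7 and 112.7 in the tumour and 6.2 and 273.7 in adjacent liver, in or near the range of other arrays. The macrophage and Kupffer cell sum was 42465 and 37897 against 17115 to 35778 in the other 8 arrays. The stellate cell and fibroblast sum was 26113 and 26538 against 12838 to 20529. Both arrays were above all others for 3 of 15 and 3 of 11 of these markers, against 12.3% of all genes. The hepatocyte sum of 485472 and 526042 was within the range of the other 8 arrays. The clock genes Dbp and Arntl also set this mouse apart from the other aged ones. Dbp was at 42.2 in its HCC and 213.6 in its adjacent liver, against 2390.2 to 7798 in the other aged arrays. Arntl was at 847.2 and 553.2, against 13.6 to 382.0. The part of these markers and clock genes in the member signals of this mouse was not tested.

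Genes of the same response outside the 34 were read in the same way, and those named were picked after their values were seen. Over all genes, 12.3% had both arrays of the male mouse above all others and 9.57% had both below, the shares to set beside each count here. Of 26 upstream signalling genes past the filter, 9 were above and 2, Nr3c1 and Cebpa, were below. Socs3, the feedback inhibitor of Stat3 signalling, had 5074 and 5136 there against at most 945.5 elsewhere, and Osmr, the oncostatin M receptor, had 2379 and 2894 against at most 652.6. Of 19 other positive acute phase plasma proteins, 11 were above, Hamp and Fgl1 among them. Of 13 negative acute phase proteins, 4 were above, Alb and Ttr included, and Serpina6 and Car3 were below. Car3, a carbonic anhydrase abundant in liver, had 9.9 in the HCC and 184.7 in adjacent liver of that mouse and at least 24701 in the others. Of 7 zinc handling genes, 3 were above, with the zinc importer Slc39a14 at 8880.2 and 8902 against at most 4107.

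In the comparison of knockout with wild-type at 11 weeks, which asks what differs in liver without Gnmt before tumours, 2 of the 32 members passed. Orm2 rose and Saa4 fell, 1 member each way, while 0.707% of all genes were called higher and 0.743% lower at a limma adjusted p below 0.05. The members had no common direction: 16 differences were positive and 16 negative, with a median of 0.02 on the log2 scale against -0.05 over all genes. The arrays of the 2 genotypes did not overlap for 8 members that were higher and 7 that were lower in the knockout, and 22% and 26.1% of genes did the same. Fold changes are on the scale of signal plus 16.8.

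The male pools differed more than the female pools. In males, 11 members were at least 2-fold higher in the knockout and 3 lower, against 6.08% and 6.52% of genes, and the median member difference was 0.23. In females, 2 were higher and 4 lower, against 4.78% and 6.5%, with a median of -0.22. Whether the genotype difference depends on sex could not be tested with 1 pool of each kind. The wild-type female pool also stood apart in the clock genes. Dbp was at 190.6 there and at 8414 to 11097 in the other young pools. Arntl was at 911.5 there and at 22.2 to 85.2 in the others. Their part in the member differences was not tested. The 8 knockout arrays of all ages were all above both wild-type pools for Cd14, Lcn2, Nfkbiz, Orm2 and Saa2, 5 of 32 members against 8.05% of genes. No member had all 8 below both, against 7.23%.

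**Figure D3:**
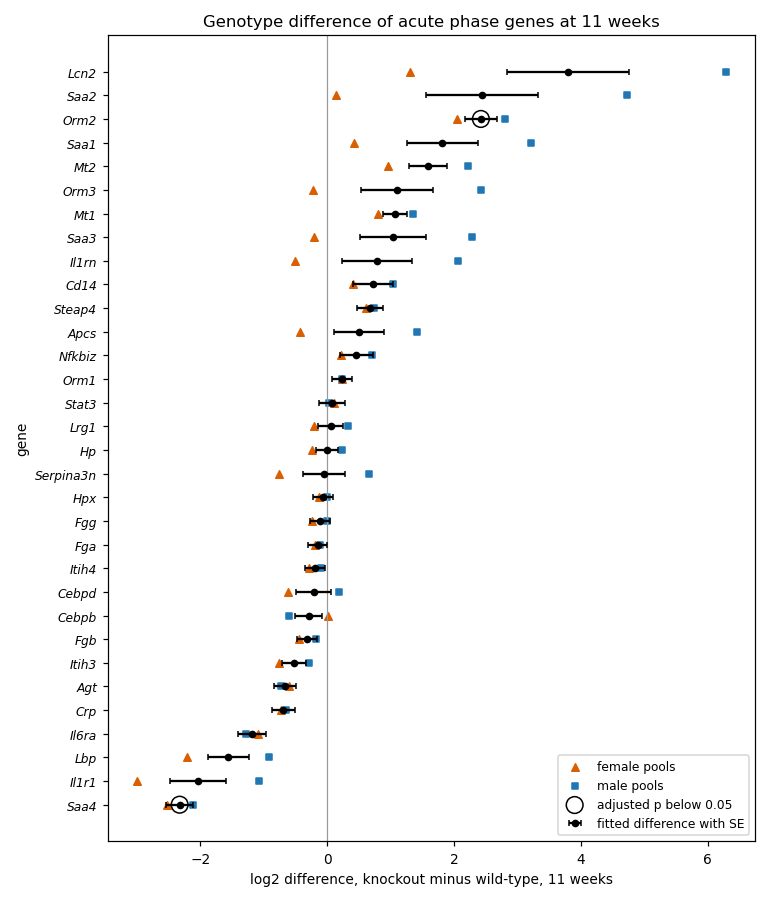
Log2 difference between knockout and wild-type at 11 weeks for the 32 members, in order of the fitted value; black circles with bars are the fitted difference and its SE, triangles the female pools and squares the male pools. Orm2 at 2.42 and Saa4 at -2.33 are ringed as called, and the squares lie far right of the triangles for Lcn2, Saa2 and Saa1.

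These calls were sensitive to the model. Without an intensity trend in the variance prior both had a limma adjusted p of 0.208, and in a model over all 10 arrays Orm2 had 0.36 and Saa4 0.23. When any of the 4 pools was left out, neither was called. Each fit without a pool was a model over all other arrays, aged ones included, so its values do not come from the young pools alone. The 11 week female pools by themselves gave 2.04 for Orm2 and -2.53 for Saa4. The male pools gave 2.80 and -2.12. In the fits without a pool, the difference of Orm2 ran from 1.01 (wild-type male pool dropped) to 3.84 (wild-type female pool dropped). That of Saa4 ran from -3.09 to -1.57 in the same order. Over the 4 fits the limma adjusted p was 0.312 to 0.804 for Orm2 and 0.268 to 0.844 for Saa4. Without the wild-type female pool the called members were Lcn2 and Saa2, among 6 genes called in all (0.0544% of the 11032 tested). With quantile normalization 607 genes (5.5%) were called, and 11 of the 32 members among them, namely Agt, Crp, Il1r1, Il6ra, Lbp, Lcn2, Mt1, Mt2, Orm2, Saa1 and Saa4. With centring on the 75th percentile 341 genes (3.09%) were called, and the 4 members among them were Mt1, Mt2, Orm2 and Saa4.

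Markers of other cell types also differed at 11 weeks. All 15 macrophage and Kupffer cell markers had negative differences, with a median of -0.56 and none called. Of 9 endothelial markers past the filter, 8 were negative, the median was -1.10, and Stab2 and Oit3 were called lower at -1.55 (limma adjusted p = 0.0401) and -1.35 (0.0496). Their part in the member differences was not tested. Neutrophil markers had a median of 0.14 over 5 genes, none of them called. In the knockout male pool S100a8 was at 629.3, against 88.0 to 130.6 in the other young pools. S100a9 was at 327.6 there against 49.7 to 184.4, and Ngp at 166.0 against 97.1 to 148.6. Csf3r at 28.0 and Elane at 71.3 were not high in that pool. The part of these markers in its member signals was not tested.

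For each member that follows, 11 week values are given for the female pool before the male pool, and aged values for adjacent liver before the lesion. The serum amyloid A proteins are small apolipoproteins that ride on high density lipoprotein. Saa1 signals were 3947 and 6699 in wild-type and 5285 and 62189 in knockout pools. Aged arrays read 16944 and 10886 in the nodule pair, 104211 and 109403 in the male HCC pair, and 8138 and 17639 in the female HCC pair. The young pools had Saa2 signals of 1448 and 1315 (wild-type) and 1601 and 35312 (knockout). Later signals were 3714 and 2863 beside and in the nodule, 75184 and 72910.3 beside and in the male HCC, and 1859 and 4338 beside and in the female HCC. The knockout male pool was high for both, by 9.28 and 26.86 times the wild-type male pool, while the female pools were near each other. The fitted genotype difference was 1.82 ± 0.56 (SE, n = 2 pools each, limma adjusted p = 0.156) for Saa1 and 2.44 ± 0.89 (adjusted p = 0.204) for Saa2. Their probe sets can take up signal of close relatives, and a second Saa1 probe set had a difference of 1.07.

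For Saa3, wild-type signals were 532.9 and 844.5 and knockout signals 460.8 and 4178 at 11 weeks. The nodule mouse had 870.9 and 354.9, the male with HCC 36980.2 and 35921, and the female with HCC 441.6 and 689.9. Saa3, which is made by hepatocytes and macrophages in inflammation, was thus at 8.6 times the next highest array in the lower array of the male mouse. It differed between genotypes by 1.04 ± 0.52 (limma adjusted p = 0.323), with 2.28 in males and -0.20 in females.

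Saa4 is the constitutive member of the family, and it fell in the knockout at 11 weeks. At 11 weeks Saa4 read 12137 and 19485 in wild-type liver and 2084 and 4465 in the knockout. With age the values were 4604 and 3142 in the female with the nodule, 15462 and 32416 in the male with HCC, and 2230.1 and 3429 in the female with HCC. Both knockout pools were below both wild-type pools, and the fitted difference was -2.33 ± 0.21 (SE, n = 2 pools each, limma adjusted p = 0.0117), a 5.02-fold lower level. The second Saa4 probe set gave -3.30. Low signals of 2230.1 to 4604.5 were also found in the 4 aged female arrays, and only the male with HCC reached or passed the wild-type range. In that mouse the tumour had 2.1 times the signal of adjacent liver.

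**Figure D4:**
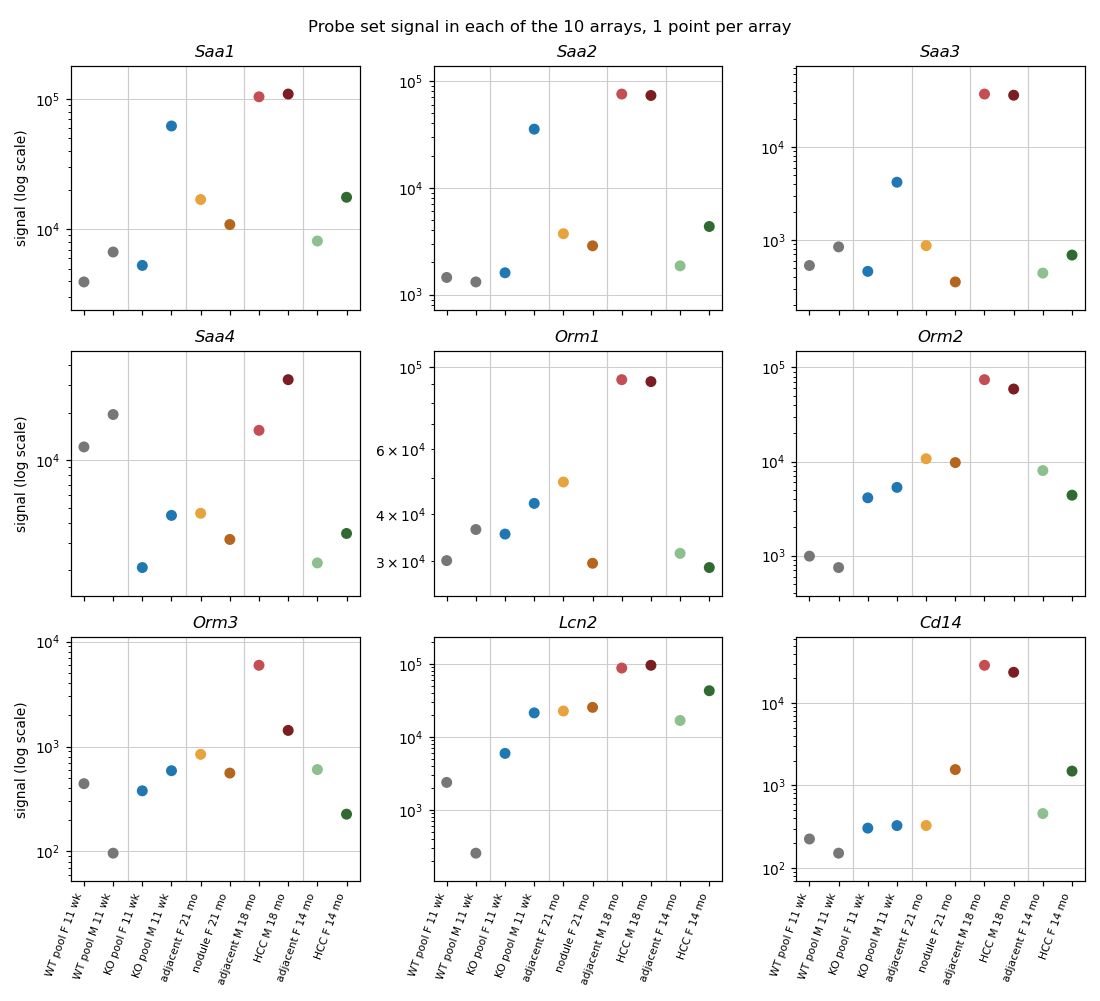
Signal of 9 members in each of the 10 arrays, 1 point per array on a logarithmic axis that differs by panel; grey is wild-type, blue knockout at 11 weeks, and each aged mouse has a colour, paler for adjacent liver. Saa4 is lower in the blue than in the grey points, Orm2 and Lcn2 are higher, and the red points of the 18 month male are the highest for Saa1, Saa2, Saa3, Orm1, Orm2, Orm3, Lcn2 and Cd14.

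The orosomucoids are alpha-1-acid glycoproteins, which bind drugs and lipids in plasma. Orm2 signals were 987.9 and 747.6 in wild-type and 4119.9 and 5314 in knockout pools. Signals of Orm2 in aged mice were 10716 and 9752 (nodule), 74165 and 58991 (male HCC), and 8022 and 4392 (female HCC). Every knockout array was above both wild-type pools. The fitted genotype difference at 11 weeks was 2.42 ± 0.26 (SE, n = 2 pools each, limma adjusted p = 0.0147), a 5.36-fold higher level, with 2.04 in females and 2.80 in males. The young pools had Orm3 signals of 442.9 and 96.3 (wild-type) and 378.4 and 588.6 (knockout). Aged arrays read 842.7 and 558.6 in the nodule pair, 5952 and 1425 in the male HCC pair, and 603.6 and 226.7 in the female HCC pair. Orm3 was lowest in the wild-type male pool, and its genotype difference of 1.10 ± 0.56 had an adjusted p of 0.333. Orm1 ranged from a lowest of 28763 through a median of 35915 to a highest of 92313. Its genotype difference was 0.24 ± 0.16 (adjusted p = 0.461).

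Lipocalin 2 withholds iron from bacteria by binding their siderophores, and it is also stored in neutrophil granules. For Lcn2, wild-type signals were 2389 and 257.4 and knockout signals 5957 and 21326 at 11 weeks. Later signals were 22619.9 and 25389 beside and in the nodule, 87553 and 95466 beside and in the male HCC, and 16792 and 42858 beside and in the female HCC. Its range was the widest of all 33 measured members, 348.22-fold between the highest and the lowest array on the scale of signal plus 16.8. All 8 knockout arrays were above both wild-type pools. The female and male pools differed within each genotype, and the fitted difference of 3.80 ± 0.96 (SE, n = 2 pools per genotype) had a limma adjusted p of 0.107. It was 1.31 in females and 6.28 in males.

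Serpina3n is a serine protease inhibitor of the antichymotrypsin group. At 11 weeks Serpina3n read 11527 and 9265 in wild-type liver and 6783 and 14699.9 in the knockout. The nodule mouse had 9462 and 7948, the male with HCC 35047 and 59299, and the female with HCC 11034 and 5059. The genotype difference was -0.05 ± 0.33 (limma adjusted p = 0.953). Lrg1 encodes leucine-rich alpha-2-glycoprotein. Lrg1 signals were 18834 and 22659 in wild-type and 16237 and 28382 in knockout pools. With age the values were 14610.4 and 10244 in the female with the nodule, 58717 and 64658 in the male with HCC, and 21338 and 28582 in the female with HCC. The pools of the genotypes overlapped for both genes, and Lrg1 differed by 0.05 ± 0.20 (adjusted p = 0.907).

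The clotting protein fibrinogen is built from 3 chains, and each has its own gene. Fga ranged from 47398 through a median of 65531 to 110177, Fgb from 30692 through 58591 to 116866, and Fgg from 32973 through 54500.0 to 91218. All 3 were lowest in the nodule and highest in the HCC of the male. At 11 weeks their genotype differences were -0.15, -0.31 and -0.12 (limma adjusted p = 0.618, 0.326 and 0.72). Signals above 100000 were read for 4 members, namely Saa1, Fga, Fgb and Mt1.

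Haptoglobin and hemopexin clear free haemoglobin and haem. Hp ranged from 42261 through a median of 51172 to 84256, and Hpx from 52114 through 57796 to 91052. They had the narrowest ranges of the members, 1.99-fold and 1.75-fold. Genotype differences were -0.01 (limma adjusted p = 0.988) and -0.07 (0.851).

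The heavy chains Itih3 and Itih4 belong to the inter-alpha-trypsin inhibitor family, which stabilises hyaluronan. The young pools had Itih3 signals of 34541 and 25773 (wild-type) and 20277 and 21159.9 (knockout). Signals of Itih3 in aged mice were 25469.6 and 13874 (nodule), 64126 and 83008 (male HCC), and 24267 and 17368 (female HCC). Itih4 ranged from 27220.4 through a median of 42261 to 92133. Both were lowest in the nodule. The genotype differences were -0.53 ± 0.19 (limma adjusted p = 0.202) and -0.19 ± 0.16 (0.56).

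The pentraxins Crp and Apcs opsonise bacteria and dying cells. For Crp, wild-type signals were 21597 and 19797 and knockout signals 12958 and 12661 at 11 weeks. Aged arrays read 8285 and 4489.7 in the nodule pair, 30253 and 27679 in the male HCC pair, and 9048 and 10272 in the female HCC pair. At 11 weeks Apcs read 21903 and 10348 in wild-type liver and 16348 and 27726 in the knockout. Later signals were 8299 and 5963 beside and in the nodule, 69772 and 69445 beside and in the male HCC, and 19812 and 14555 beside and in the female HCC. For Crp both knockout pools were below both wild-type pools, by -0.69 ± 0.18 (limma adjusted p = 0.111). Apcs differed by 1.42 in males and -0.42 in females (adjusted p = 0.522). Both genes were lowest in the nodule mouse.

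A2m, alpha-2-macroglobulin, is a broad protease inhibitor and a strong acute phase protein of the rat. Its signal was 1975 in the HCC of the male and 98.1 in the adjacent liver, and 19.0 to 85.5 in the other 8 arrays. The male pair differed by 4.12 log2 units of signal plus 16.8, with 1 array a side and no test. It was left out of every fit.

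Bacterial lipopolysaccharide is carried by Lbp to the receptor Cd14. Lbp signals were 10008 and 5434 in wild-type and 2157 and 2882 in knockout pools. The nodule mouse had 3731 and 5227, the male with HCC 16000.1 and 12866, and the female with HCC 4630.3 and 5053. Both knockout pools were below both wild-type pools, and the difference of -1.56 ± 0.32 had a limma adjusted p of 0.0681. The young pools had Cd14 signals of 223.9 and 150.6 (wild-type) and 303.4 and 325.7 (knockout). With age the values were 326.4 and 1559 in the female with the nodule, 28786 and 23675 in the male with HCC, and 456.0 and 1494 in the female with HCC. Cd14 was low in all young livers and in 2 of the 3 adjacent livers. The genotype difference was 0.72 ± 0.32 (adjusted p = 0.268).

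In the interleukin 1 system, Il1r1 encodes the signalling receptor and Il1rn the antagonist that blocks it. For Il1r1, wild-type signals were 753.2 and 853.7 and knockout signals 79.7 and 395.9 at 11 weeks. Signals of Il1r1 in aged mice were 421.3 and 341.7 (nodule), 2242 and 2642 (male HCC), and 180.7 and 182.0 (female HCC). The fitted genotype difference for Il1r1 was -2.04 ± 0.44 (limma adjusted p = 0.0774), with -2.996 in females and -1.08 in males. At 11 weeks Il1rn read 376.5 and 149.3 in wild-type liver and 260.7 and 679.3 in the knockout. Aged arrays read 288.0 and 444.1 in the nodule pair, 3657 and 3707 in the male HCC pair, and 538.4 and 493.7 in the female HCC pair. For Il1rn it was 0.78 ± 0.55 (adjusted p = 0.479), with opposite signs in the sexes, -0.50 in females and 2.07 in males.

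Il6ra is the ligand-binding subunit of the interleukin 6 receptor. Il6ra signals were 1176 and 1907 in wild-type and 542.4 and 773.9 in knockout pools. Later signals were 1871 and 703.6 beside and in the nodule, 436.7 and 576.7 beside and in the male HCC, and 544.3 and 317.0 beside and in the female HCC. Both knockout pools were below both wild-type pools by -1.19 ± 0.23 (limma adjusted p = 0.058), and a second probe set gave -0.57. In the male with HCC it was not high. Stat3 ranged from 2689 through a median of 4429 to 9171 and had a genotype difference of 0.07 ± 0.20 (adjusted p = 0.888). Its other 3 probe sets gave 0.10, -1.39 and -0.63, so the probe sets disagreed.

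The young pools had Nfkbiz signals of 393.0 and 411.4 (wild-type) and 457.7 and 681.0 (knockout). The nodule mouse had 1930.0 and 1295, the male with HCC 1838 and 1175, and the female with HCC 1602 and 1146. Nfkbiz, an NF-kB partner needed for a subset of target genes, was thus higher in every aged array than in every young one. Its genotype difference was 0.46 ± 0.26 (limma adjusted p = 0.375), and 1 of its other 2 probe sets had the opposite sign, -0.50. For Cebpd, wild-type signals were 661.4 and 1034 and knockout signals 424.6 and 1183 at 11 weeks. With age the values were 296.5 and 470.9 in the female with the nodule, 2602 and 3480.3 in the male with HCC, and 913.9 and 615.7 in the female with HCC. Cebpb ranged from 5883 through a median of 9168 to 18283. These C/EBP genes differed between genotypes by -0.21 and -0.29 (adjusted p = 0.713 and 0.504). Agt, the precursor of angiotensin, ranged from 8192 through 12348 to 28934, was highest in the wild-type female pool and differed by -0.67 ± 0.17 (adjusted p = 0.117).

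Metallothioneins hold zinc in the hepatocyte, and their genes carry metal response elements. At 11 weeks Mt1 read 31379.5 and 22889 in wild-type liver and 54379.5 and 58209 in the knockout. Signals of Mt1 in aged mice were 68507 and 37172 (nodule), 91519 and 103788 (male HCC), and 41498 and 16673 (female HCC). Mt2 signals were 13845 and 6853 in wild-type and 26939.6 and 31872 in knockout pools. Aged arrays read 36031 and 15615 in the nodule pair, 66669.8 and 71867 in the male HCC pair, and 24246 and 6417 in the female HCC pair. For both, each knockout pool was above both wild-type pools. The fitted differences were 1.07 ± 0.19 for Mt1 (limma adjusted p = 0.051) and 1.59 ± 0.29 for Mt2 (0.0544), and neither passed. The Mt2 window shown above holds 5 matches to TGCNCNC and that of Mt1 holds 1, letters that 44.4% of all windows contain. Their part in these differences was not tested. A second Mt1 probe set gave 0.25.

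Steap4 reduces iron and copper for uptake. The young pools had Steap4 signals of 2834 and 2671 (wild-type) and 4347 and 4478 (knockout). Later signals were 5202 and 2684 beside and in the nodule, 28816 and 25018 beside and in the male HCC, and 6304 and 6002 beside and in the female HCC. Its knockout pools were above both wild-type pools by 0.68 ± 0.21 (limma adjusted p = 0.155), and a second probe set gave -0.16.

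The lesions were then compared with adjacent liver, which asks what differs in a nodule or tumour within the same animal. No member passed in the 2 HCC pairs, where 0.0816% of all genes were called, nor in all 3 pairs, where 0.00906% were called (limma adjusted p below 0.05). At an unadjusted p below 0.05 there were 3 members in the HCC pairs, namely Cebpb, Orm3 and Saa4, against 7.65% of genes. In all 3 pairs there were 4, namely Cd14, Mt2, Nfkbiz and Orm3, against 9.93%. The member median was -0.06 over the HCC pairs and -0.25 over all 3, against -0.01 and 0.00 for all genes. In a model over all remaining arrays the HCC median was -0.28 without the male pair and 0.57 without the female pair, on either side of 0.

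Orm3 had the largest difference in the HCC pairs, -1.70 ± 0.29 (SE, n = 2 pairs, limma adjusted p = 0.106). Its lesion signal was 0.24 times that of adjacent liver in the male, 0.38 times in the female with HCC and 0.66 times in the nodule mouse. Orm2 had the same sign in all 3 pairs at 0.8, 0.55 and 0.91 times. Nfkbiz and Agt were the 2 of 32 members whose 3 lesion arrays all lay below the 3 adjacent arrays, which 4.12% of genes did. For Nfkbiz the difference was -0.56 ± 0.17 (n = 3 pairs, adjusted p = 0.383), and for Agt it was -0.44 ± 0.21 (0.56).

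The mice differed in what their lesions showed. In the male HCC, Saa4 was the 1 member at least 2-fold above adjacent liver (4.54% of genes) and Orm3 the 1 below (4.6%). In the female HCC, Cd14, Lcn2, Saa1 and Saa2 were at least 2-fold above (4 of 32, 6.23% of genes), and Mt1, Mt2, Orm3 and Serpina3n below (4 of 32, 4.07%). Mt2 there had 0.26 times the signal of adjacent liver, and Cd14 had 3.28 times. In the nodule, Cd14 was above (1 of 32, 7.81% of genes) at 4.78 times, and Il6ra, Mt2, Saa3 and Stat3 were below (4 of 32, 3.86%). With centring on the 75th percentile 8 members were at least 2-fold below in the nodule. The share of all genes below in that setting is not given here, so this count cannot be set against all genes. Over all 3 pairs that centring moved the median of all genes from 0.00 to -0.06. The member median in the nodule pair was -0.57 against 0.03 for all genes. Each of these is 1 array a side, so no test was made.

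**Figure D5:**
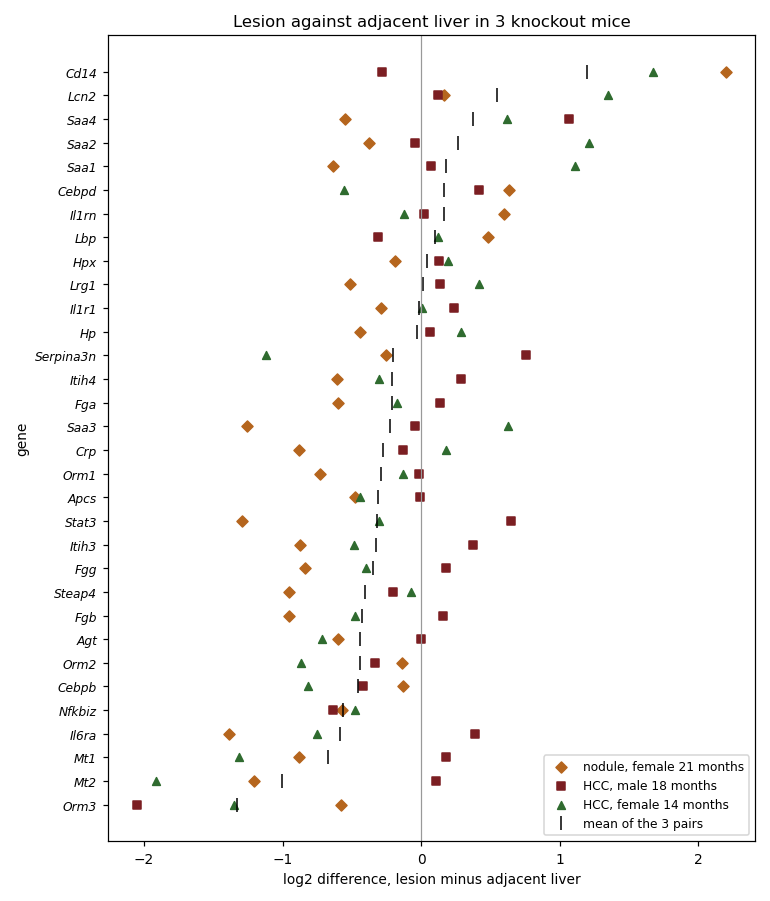
Log2 difference between lesion and adjacent liver for the 32 members in each of the 3 mice, in order of the mean of the pairs; diamonds are the nodule, squares the male HCC, triangles the female HCC and ticks the mean. Cd14 lies right of 0 in the nodule and the female HCC at 2.20 and 1.68 but not in the male, and Orm3 lies left of 0 in all 3.

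Markers of other cell types differed in the same pairs. In the HCC pairs the cholangiocyte marker Tspan8 was called higher at 2.73 (limma adjusted p = 0.0234), and no other marker was called. The other cholangiocyte markers did not follow it. Of 4 past the filter 2 were positive and 2 negative, with a median of 0.09, Krt19 at -0.38 and Epcam at 0.26. Of 15 macrophage and Kupffer cell markers, 7 were positive in the HCC pairs, with a median of -0.01, and 11 in all 3 pairs, with a median of 0.38. Their summed signal was 35778 in the nodule against 17115 in its adjacent liver, 42465 against 37897 in the male HCC pair, and 33224 against 32369 in the female HCC pair. Over all 3 pairs the largest of them was Marco at -1.23 (adjusted p = 0.478). Of 11 stellate cell and fibroblast markers 7 were positive over all 3 pairs, with a median of 0.44 and Col1a1 at 2.32 (0.39). All 9 endothelial markers past the filter were positive, with a median of 0.29 and Lyve1 at 1.21 (0.209). Of 12 hepatocyte markers 10 were negative, with a median of -0.37. Their part in the lesion differences was not tested. Leaving out the male pair, Cd14 and Mt2 were called over the remaining 2 pairs, among 177 genes called (1.6%). Leaving it out of the HCC comparison, Mt2 was called in a model over all remaining arrays, among 162 genes (1.47%).

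The 3 adjacent livers of aged knockout mice were set against the young knockout pools, which asks how knockout liver differs with age outside the lesion. Of the 32 members 31 had positive fitted differences, with a median of 0.61 against 0.08 for all genes, but no gene was called (0% of genes by limma). At an unadjusted p below 0.05 there were 16 members, against 12.3% of genes. The adjacent livers lay above both pools for 9 members, against 17.1% of genes: Cd14, Fgb, Itih3, Lbp, Nfkbiz, Orm2, Orm3, Stat3 and Steap4. The largest differences were those of Cd14 at 2.93 ± 1.19 (limma adjusted p = 0.4), Orm2 at 2.29 ± 0.55 (0.386), Il1r1 at 1.97 ± 0.42 (0.374) and Orm3 at 1.92 ± 0.52 (0.386). The smallest adjusted p among members was 0.292, for Lcn2 at 1.85 ± 0.24 and Nfkbiz at 1.69 ± 0.24. Agt was the member with a negative fitted value, -0.25 ± 0.22. Against the young knockout pool of the same sex, the signs in single adjacent livers were less uniform. Negative in the female with HCC were Saa3, Orm1, Hpx, Fga, Fgg, Crp, Itih4, Mt1, Mt2 and Agt. Negative in the nodule mouse were Crp, Apcs, Itih4, Lrg1, Cebpb, Cebpd and Agt, and in the male Il6ra alone.

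The male with HCC lay farthest from the young pools. Against the pool of the same sex the median member difference was 1.12 in the adjacent liver of the male, 0.37 in that of the nodule mouse and 0.24 in that of the female with HCC. Without that male, or without the knockout male pool, the fitted median was 0.31. Without the knockout female pool it was 1.12, and 11 members were called among 441 genes (4.0% of those tested). Without the nodule mouse it was 0.73, and Il1rn, Lbp, Lcn2, Nfkbiz and Orm2, 5 members, were called among 110 genes (0.997%). Markers of other cell types differed beside them, with none called. All 5 neutrophil markers past the filter were positive, with a median of 1.51, S100a8 at 2.94 (limma adjusted p = 0.344) and S100a9 at 2.88 (0.292). Of 15 macrophage and Kupffer cell markers 14 were positive, with a median of 0.67. Of 6 B and plasma cell markers 5 were positive, with a median of 0.75, Ighm at 3.36 (0.374) and Jchain at 2.17 (0.292). Their part in the member differences was not tested. The spike ratio BioC over BioB lay between 3.9 and 5.09 on young and between 1.45 and 1.84 on aged arrays. Age and whatever moved this ratio cannot be told apart.

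Females were compared with males at 11 weeks over both genotypes. No member passed, while 0.272% of genes were called by limma, and 9 members had an unadjusted p below 0.05 against 9.21% of genes. Saa1 was lower in females by -2.16 ± 0.56 (limma adjusted p = 0.328), Saa2 by -2.16 ± 0.89 (0.538) and Saa3 by -1.89 ± 0.52 (0.366). The knockout male pool carried these values, since in wild-type the female minus male differences were -0.76, 0.14 and -0.65.

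The related lists gave few calls at 11 weeks. Of 19 other positive acute phase plasma proteins past the filter Itih5 was called higher in the knockout at 1.82 (limma adjusted p = 0.031), and the median was 0.01. None of 26 upstream signalling genes was called, with a median of -0.19, Nfkb2 at 1.88 (adjusted p = 0.146) and Il1rap, the accessory chain of the interleukin 1 receptor, at -0.91 (0.0903). None of 13 negative acute phase proteins was called, with a median of -0.14 and Apoa4 at 0.99 (0.0609). None of 7 zinc handling genes was called, with a median of -0.12 and the zinc exporter Slc30a1 at -0.95 (0.0932). The median of all genes was -0.05.

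In lesions the same lists had no called gene. Hamp2, a hepcidin gene, had -1.74 in the HCC pairs (limma adjusted p = 0.064) and -1.97 in all 3 pairs (0.0806). Timp1, an inhibitor of matrix proteases, had 1.58 (0.263) and 1.36 (0.305). Medians over all 3 pairs were -0.03 for upstream signalling, -0.15 for other positive acute phase plasma proteins, -0.19 for negative acute phase proteins and 0.18 for zinc handling. In aged adjacent against young knockout liver, Osmr had 2.07 (0.391), Bcl3 1.84 (0.344) and Socs3 1.70 (0.459), and Car3 had -3.35 (0.391). Between the sexes Hamp2 was called higher in females at 2.50 (0.00469), and no other gene of these lists was.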

How the data were processed

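Liver RNA of Gnmt knockout and wild-type mice was measured on 10 Affymetrix arrays. Per the labels' protocols, the authors made biotin-labelled RNA from total RNA, and the submitters' processing notes name the GCOS software, with its version and settings not given in the sources used here. The authors deposited 1 linear intensity per probe set, and every deposited array had a trimmed mean of 500 with 2% left out at each end. No detection call was used. Of 45101 probe sets, 64 were controls, 34945 named 1 gene, 932 several and 9211 were not listed.

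A constant of 16.8, the 20th percentile of the table, was added to each intensity before log2. Genes were kept where the mean log2 of the brightest probe set was above that of a signal of 91, the median of all values, which left 11032 of 18193. Several probe sets were present for 12 members, and overlap of signal between related genes was not resolved.

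Models were fitted over the 11032 genes with limma 3.58.1 in R 4.3.3, with an intensity trend, and were tested on simulated data. Adjustment of p-values followed Benjamini and Hochberg over all 11032, and an adjusted p below 0.05 was called. Knockout against wild-type carried sex as a term, females against males carried genotype, lesions against adjacent liver carried the mouse, and aged adjacent against young knockout liver carried sex. They left 1 residual degree of freedom, or 2 with 3 pairs or adjacent livers. In the last fit, differences are adjusted for sex and can depart from the difference of group means. The nodule pair has 1 array a side and no test. The number of arrays limits the precision.

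Members given with every signal were those called in any comparison or with a log2 range of at least 2 over the arrays, 23 in all, and the other 10 are given by lowest, median and highest. From related lists at most 4 genes with the largest differences were named, unless said otherwise. The members and lists were chosen with earlier results of these data known. Alternatives were the added constant, the normalization, the filter, the trend, the model over all arrays, the mean of all probe sets, the mouse term and leaving out arrays. Promoters came from RefSeq, build GRCm38.p6. Python 3.11.15 was used for tables and figures.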

Additional observations from a re-analysis of the deposited data

Results flagged for a closer look

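For 2 members the pools of females and males differed in opposite directions in the 2 genotypes at 11 weeks, by at least 1 log2 unit each way. Lcn2 was 3.13 higher in the wild-type female than in the wild-type male pool on the log2 scale, and the knockout female minus male difference was -1.84. For Il1rn the same differences were 1.24 in wild-type and -1.33 in the knockout. Each rests on 1 pool per sex and genotype, so the difference between genotypes was not tested.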

How the results depend on the processing

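Outside the settings that leave out arrays, 128 of the recomputed results kept their size or call, 25 moved and 4 lost it. For knockout against wild-type, with 160 genes and 2 members called, quantile normalization gave 607 genes and 11 members, centring on the 75th percentile 341 and 4, no trend 1 and 0, all arrays in 1 model 1 and 0, and the mean of all probe sets 38 genes. Leaving out a pool, in a model over all other arrays that assumes the lone pool varies like the other groups, gave 0 to 6 genes, 0 to 2 members and member medians of -0.66 to 0.52. For HCC, with 9 genes called, quantile normalization gave 3, 75th percentile centring 4, no filter 16, no trend 0, all arrays 1 and no mouse term 0, and leaving out a pair gave 0 to 162 genes, 0 to 1 members and medians of -0.28 to 0.57. For all lesions, with 1 gene called, 75th percentile centring gave 3, no filter 3, all arrays 5, and the mean of all probe sets and no mouse term 0 each, and leaving out a pair gave 2 to 177 genes and 0 to 2 members. For aged against young knockout liver leaving out an array gave 0 to 441 genes, 0 to 11 members and medians of 0.31 to 1.12. For the sexes, with 30 genes called, quantile normalization gave 87, no trend 1 and the mean of all probe sets 19, the all-array member median was -0.88, and leaving out a pool gave 5 to 25 genes, 0 to 5 members and medians of -1.30 to -1.10. In the nodule pair, 75th percentile centring gave 8 members at least 2-fold lower in place of 4, without a share over all genes to set beside it. That centring moved the median of all genes from -0.05 to 0.10 for genotype and from 0.08 to -0.10 for age. The cause of these changes was not tested. Orm2 and Saa4, the called members followed through every setting, kept their sign. Member medians, which carry no call, changed sign: that of genotype from 0.02 to -0.66 without the wild-type male pool and -0.27 without the knockout female pool, that of HCC from -0.06 to 0.05 with all arrays and 0.57 without the female pair, and that of the sexes from 0.05 to -0.07 with 75th percentile centring, besides the negative values above. No paired analysis was possible because the labels carry no replicate numbers, beyond the inferred pairing by mouse. Depth cannot be given for arrays, and signals near the added constant of 16.8, such as those of A2m, carry little information.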
